A study of Rattus norvegicus with 6 samples.

Results

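The comparison is between the infarcted (right) hemispheres of rats with severe and with moderate ischemic stroke, the libraries sMCAO ipsi and mMCAO ipsi. They hold 8665 and 12948 nuclei within the limits used here, 21613 of the 73649 nuclei in the series, in 2 of its 6 samples. All samples came from the brains of male, wild-type Wistar rats aged 12 weeks, taken 48 h after the operation. In the MCAO groups the right middle cerebral artery was occluded permanently with a filament and the rats were sorted into moderate (3 rats) and severe (4 rats) infarctions from lesion volumes on MRI. The 4 Sham rats had the operation without the occlusion. Single-nucleus RNA-seq was run on coronal tissue from the level of the lesions, with the nuclei of all rats of a group pooled into 1 library per hemisphere. The opposite hemispheres of the same rats, sMCAO contra with 10794 nuclei and mMCAO contra with 14491, were compared in the same way. They show how far the pools of rats differ on the side opposite the infarct, and not how rats without a stroke would differ.

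Each group is 1 library, so no difference had a replicate check and no test was made. Severity, the pool of rats and the library cannot be told apart within the infarcted pair, nor within the contra pair. Values are UMIs, the unique transcript molecules counted, summed over the nuclei of a class, and CPM, the UMIs of a gene scaled to 1000000 UMIs of that class sum. The ipsi ratio is the CPM of sMCAO ipsi over that of mMCAO ipsi, and the contra ratio is the CPM of sMCAO contra over that of mMCAO contra. Square brackets hold exact 95% intervals, binomial for shares and Poisson for ratios, and they cover counting error only.

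Occlusion of an artery leaves a core in which neurons die within hours, surrounded by tissue that may survive. Microglia and blood-borne myeloid cells then clear debris, astrocytes enlarge and line the lesion, and oligodendrocytes, which insulate axons with myelin, are themselves sensitive to lack of oxygen. Vessels at the lesion lose parts of the barrier that normally keeps blood proteins and cells out of the brain.

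The libraries held 33012945 to 52513380 UMIs in the 4 MCAO samples, with median depths of 2059 UMIs per nucleus in sMCAO ipsi and 3178 in mMCAO ipsi. Mitochondrial transcripts made up 0.213% of the UMIs in sMCAO ipsi and 0.0567% to 0.0796% in the other 3. Between 1.34% and 2.18% of cell barcodes were shared by any 2 of the 6 libraries, 158 of them by the infarcted pair. Nuclei were assigned to classes by at least 2 distinct marker genes and left as mixed where a second class scored too high. The summed level of each marker list in its own class was similar in the infarcted pair, for example 13996 and 14663 CPM for the oligodendrocyte list in mMCAO ipsi and sMCAO ipsi, 8161 and 8417 CPM for the myeloid list, and 12132 and 12704 CPM for the endothelial list.

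Nuclei with neuronal markers made up 66.5% of mMCAO ipsi [65.7, 67.3] and 34.4% of sMCAO ipsi [33.4, 35.4]. The ratio of these shares was 0.517 [0.496, 0.539], against 1.02 [0.989, 1.05] in the contra pair. Every other named class took a larger share of sMCAO ipsi, and the classes were not raised by the same factor. Endothelial nuclei were 56 (0.432%) in mMCAO ipsi and 238 (2.75%) in sMCAO ipsi, a ratio of 6.35 [4.73, 8.66], with the contra ratio on the other side of 1 at 0.559 [0.336, 0.906]. Fibroblast nuclei, which carry collagen genes, numbered 28 and 95, a ratio of 5.07 [3.30, 8.03]. Mural nuclei, the pericytes and smooth muscle cells of vessels, numbered 15 and 38, a ratio of 3.79 [2.03, 7.41]. These 3 intervals overlap one another, and that of mural nuclei also holds the myeloid ratio of 2.79 given next.

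Myeloid nuclei were 6.45% of mMCAO ipsi and 18.0% of sMCAO ipsi, a ratio of 2.79 [2.56, 3.03]. Ependymal nuclei, the ciliated lining of the ventricles, had a ratio of 2.26 [1.56, 3.28], with a contra ratio of 0.541. Among glia, astrocytes were 2.77% and 5.47%, a ratio of 1.97 [1.72, 2.27], oligodendrocytes 8.05% and 15.1%, a ratio of 1.88 [1.73, 2.04], and oligodendrocyte precursor cells (OPC) 2.84% and 3.90%, a ratio of 1.37 [1.18, 1.60]. Contra ratios of the myeloid and these 3 glial classes lay between 0.865 and 0.906. A share cannot tell a gain of one class from a loss of another. Counted among the non-neuronal named nuclei alone (2754 in mMCAO ipsi and 4128 in sMCAO ipsi), oligodendrocytes were 37.8% and 31.8%, OPC 13.4% and 8.19%, and astrocytes 13% and 11.5%. On that base their ratios were 0.839, 0.613 and 0.881, the last with an interval that holds 1 [0.766, 1.01]. With nuclei thinned to 1000 UMIs and shallower ones left out, the oligodendrocyte ratio on that base was on the other side of 1, at 1.64 [1.39, 1.96], while OPC were at 0.530 and astrocytes at 0.576. Myeloid (1.24 [1.14, 1.35]), endothelial (2.84 [2.11, 3.86]) and fibroblast nuclei (2.26 [1.47, 3.58]) kept a larger share of sMCAO ipsi on both bases. Among non-neuronal nuclei ependymal nuclei were at 1.01 [0.698, 1.46] and mural nuclei at 1.69 [0.908, 3.31], both with intervals that hold 1. With nuclei thinned to 500 UMIs the fibroblast ratio among non-neuronal nuclei was 1.69 [0.989, 3.01], an interval that holds 1.

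**Figure D1:**
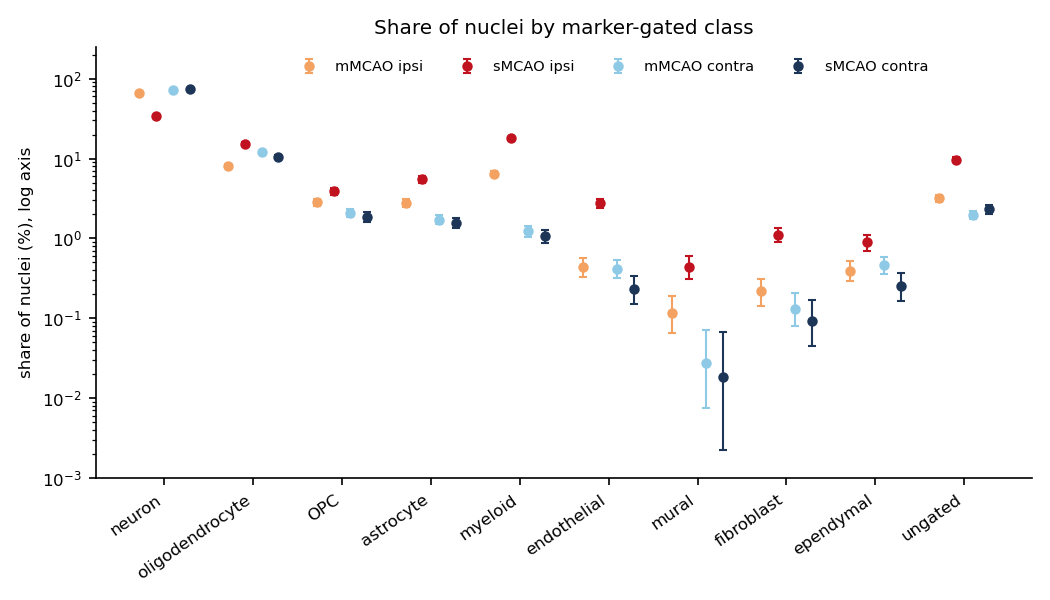
Share of nuclei by class in the 4 MCAO libraries (percent of nuclei, log axis), with exact 95% binomial intervals as bars. sMCAO ipsi is lowest for neurons, at 34.4%, and highest of the 4 for each other class plotted, for example at 18.0% for myeloid nuclei against 6.45% in mMCAO ipsi.

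Nuclei that met no class were 3.17% of mMCAO ipsi and 9.73% of sMCAO ipsi, a ratio of 3.07 [2.73, 3.47] against 1.16 in the contra pair. Mixed nuclei, which include doublets, were 9.05% and 8.24%. Depth per nucleus also differed within classes. Neurons had a median of 4121 UMIs in mMCAO ipsi and 6889 in sMCAO ipsi, oligodendrocytes 697.0 and 1118, OPC 999.5 and 1769, astrocytes 1327 and 2398, and myeloid nuclei 751.0 and 1069. In all 5 of these classes the deeper nuclei were those of sMCAO ipsi. The part of depth in the shares was examined by thinning every nucleus to 500 UMIs, which gave ratios of 0.505 for neurons, 2.64 for myeloid and 6.06 for endothelial nuclei. Fibroblast nuclei were then at 3.66 [2.14, 6.50], and unclassified nuclei at 1.36 [1.28, 1.44]. With 1 more marker required, unclassified nuclei were at 2.0 [1.84, 2.18]. Thinning to 1000 UMIs left out shallower nuclei and gave larger ratios for oligodendrocytes (7.47), myeloid (5.32) and endothelial nuclei (9.27), with mural nuclei at 2.65 [0.961, 7.94].

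Gene expression was compared within classes, over genes with at least 20 CPM on average in a pair and at least 50 UMIs in the pair together. A gene is called past 2-fold at a ratio of at least 2 or at most 0.5. In the infarcted pair 11.4% of the genes compared in myeloid nuclei were past 2-fold (919 of 8029), 14.1% in endothelial nuclei (322 of 2278), 7.48% in oligodendrocytes (484 of 6470), 5.53% in astrocytes (357 of 6453), 3.46% in OPC (151 of 4369) and 0.559% in neurons (35 of 6265). The contra pair gave 2.29% in myeloid nuclei, 4.04% in endothelial nuclei, 0.717% in oligodendrocytes, 1.55% in astrocytes, 0.903% in OPC and 0.0159% in neurons. The counts depend on how many UMIs a class holds. With the 4 sums of each class thinned to the same total, the ipsi and contra shares were 9.25% and 2.45% in myeloid nuclei, 16.0% and 7.53% in endothelial nuclei, 7.57% and 0.954% in oligodendrocytes, 3.69% and 1.67% in astrocytes, 2.99% and 1.15% in OPC, and 0.559% and 0.0318% in neurons. The infarcted pair had the larger share in each of these classes, although only 75 and 93 endothelial genes could be compared at that total. Higher and lower genes were then 24 and 25 in astrocytes, 31 and 28 in OPC, 21 and 44 in myeloid and 5 and 7 in endothelial nuclei.

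**Figure D2:**
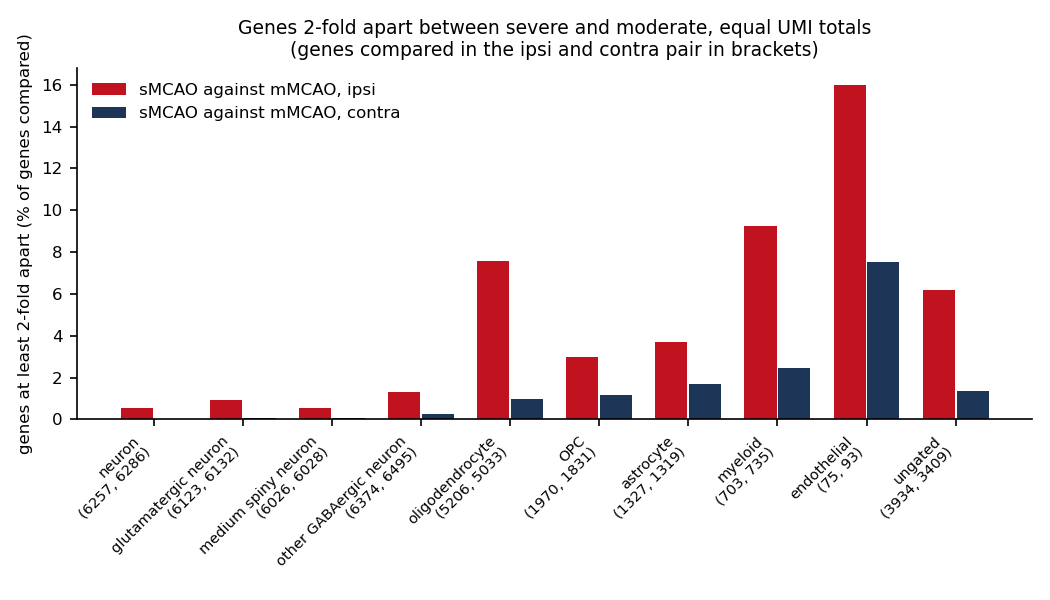
Percent of compared genes past 2-fold, severe against moderate, by class, in the ipsi and contra pairs (bars) after all 4 sums of a class were thinned to the same total of UMIs, with the number of genes compared in brackets. The ipsi bars run from 0.559% in neurons to 16.0% in endothelial nuclei, each above its contra bar.

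Neuronal marker RNA in the other classes also differed within the infarcted pair. At the ratio of these markers to all UMIs in neurons, it corresponded to 9.06% of the UMIs of oligodendrocyte nuclei in mMCAO ipsi and 3.39% in sMCAO ipsi, in astrocytes to 11.7% and 7.44%, in myeloid nuclei to 8.07% and 2.99%, and in endothelial nuclei to 6.38% and 2.05%. Contra values of these 4 classes lay between 7.92% and 18.6%. OPC were at 19.8% and 19.9%. Free RNA, doublets and low expression by the class itself cannot be told apart in these values. Ratios below 1 of genes that neurons or other classes express at a high level move with this difference, and its part in the ratios of single genes was not tested. Class sums with the neuronal profile taken out were among the alternatives run for list sums and for counts of genes past 2-fold.

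In myeloid nuclei, 382 genes were at least 2-fold higher (4.76% of those compared) and 537 at most 0.5-fold (6.69%) in sMCAO ipsi. Markers of dendritic cells, mostly MHC class II genes that activated microglia and macrophages can also express, differed together. They summed to 172 CPM in mMCAO ipsi and 775 CPM in sMCAO ipsi, an ipsi ratio of 4.50 [3.80, 5.35], and 6 of 6 compared members were past 2-fold. The contra ratio was 0.733 on few UMIs. Cd74, the chaperone of MHC class II molecules, had 50 UMIs in mMCAO ipsi and 606 in sMCAO ipsi, 57.8 and 305 CPM, a ratio of 5.27 [3.94, 7.18]. RT1-Db1, a rat MHC class II chain, had 29 and 321 UMIs, a ratio of 4.81 [3.29, 7.30]. Flt3, the receptor that drives dendritic cell development, had 15 and 145 UMIs, a ratio of 4.20 [2.46, 7.70]. Few nuclei carried Flt3, which was detected in 71 of 1557 myeloid nuclei of sMCAO ipsi and in 12 of 835 of mMCAO ipsi.

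Macrophage markers summed to 197 and 514 CPM, a ratio of 2.61 [2.22, 3.09], and the contra pair differed in the same direction by 2.37 [1.39, 4.08]. The mannose receptor Mrc1 was at 78.7 and 204 CPM, a ratio of 2.59 [2.0, 3.40], and Ccr2, the receptor by which blood monocytes enter tissue, had 6 and 61 UMIs, a ratio of 4.42 [1.92, 12.5]. Microglial markers went the other way, from 1179 to 793 CPM, a ratio of 0.673 [0.622, 0.729] with a contra ratio of 0.808 [0.633, 1.03]. P2ry12, the purinergic receptor of resting microglia, was at 545 and 335 CPM, a ratio of 0.615 [0.545, 0.693]. The transcription factor Sall1 was at 164 and 90.5 CPM, a ratio of 0.551 [0.440, 0.691]. The fractalkine receptor Cx3cr1 was at 419.9 and 330.3 CPM, a ratio of 0.787 [0.691, 0.897]. Macrophage markers were thus higher and microglial markers lower in sMCAO ipsi. Sums cannot tell fewer microglia from less of these transcripts per microglial nucleus.

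Iron and heme handling genes, needed where red cells are digested, had a summed ratio of 3.03 [2.72, 3.39] against 1.29 in the contra pair. The ferritin heavy chain Fth1 led the list with 103 and 1435 UMIs, 119 and 721 CPM, a ratio of 6.06 [4.96, 7.47] with a contra ratio of 2.63. Ferritin light chain Ftl1 was 3.61-fold [2.34, 5.83] and the heme-degrading enzyme Hmox1 1.88-fold [1.26, 2.87] higher. All 6 compared members of the list had intervals above 1, as had 17.4% of all genes compared in myeloid nuclei. The RNA of haemoglobin itself, made by red cell precursors and left in blood, was at 26.6 and 285 CPM in the myeloid class, and the beta chain Hbb-b1 alone at 11.6 and 141 CPM, a ratio of 12.2 [6.54, 25.7].

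Matrix and integrin genes had a summed ratio of 1.82 [1.71, 1.94], close to the contra ratio of 1.95 [1.46, 2.60]. Their members were split, with 7 past 2-fold upward and 3 downward, where 4.76% and 6.69% of all genes compared were. Tgfbi, a secreted matrix protein, had 16 and 252 UMIs, a ratio of 6.85 [4.13, 12.2]. Fibronectin (Fn1) had 31 and 349 UMIs, a ratio of 4.89 [3.38, 7.31], and thrombospondin 1 (Thbs1) 22 and 211 UMIs, a ratio of 4.17 [2.68, 6.79]. Galectin-3 (Lgals3) was at 92.5 and 273 CPM, a ratio of 2.94 [2.32, 3.77], with a contra ratio of 4.70 on 15 UMIs. The basement membrane collagen Col4a1 was among the lower members, at 35.9 and 14.6 CPM, a ratio of 0.407 [0.236, 0.697].

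Lysosome and lipid genes were broadly higher, with a summed ratio of 1.59 [1.53, 1.65] and intervals above 1 for 15 of 18 members, against the 17.4% of all genes. Apoe, the lipid carrier, was at 256 and 516 CPM, a ratio of 2.02 [1.74, 2.35] with a contra ratio of 0.739. The protease Ctsl was at 52.1 and 133 CPM, a ratio of 2.55 [1.85, 3.58]. Gpnmb, a membrane protein of lipid-laden phagocytes, was at 434 and 862 CPM, a ratio of 1.99 [1.78, 2.23], but the contra ratio was larger at 3.54. Cell cycle genes did not follow: they summed to 3955 and 3492 CPM, a ratio of 0.883 [0.847, 0.920], with 8 of 29 intervals below 1 and 1 above, where 15.3% of all genes had an interval below 1. Top2a, which untangles DNA in dividing cells, was at 289 and 209 CPM, a ratio of 0.722 [0.615, 0.848].

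The naming rule picked as highest Hbb-b1, the alpha haemoglobin gene Hba-a2 (13 and 286 UMIs, ratio 9.56), the ABC transporter Abca17 (5.78 and 66.9 CPM, ratio 11.6, contra ratio 4.27) and the ribosomal gene Rplp1 (33.5 and 220.2 CPM, ratio 6.56). The genes that the naming rule picked as lowest in myeloid nuclei of sMCAO ipsi were Adamts9 (57.8 and 7.04 CPM, ratio 0.122), Lama4 (54.4 and 7.04 CPM, ratio 0.129), Ebf1 (84.4 and 12.6 CPM, ratio 0.149) and Bcas1 (291 and 83.5 CPM, ratio 0.286). Adamts9 and Lama4 encode a matrix protease and a vessel laminin, Ebf1 a transcription factor of B and mural cells, and Bcas1 a protein of newly formed oligodendrocytes, so none is known as a myeloid marker. Markers of other classes were lower in the same nuclei: the neuronal list at 735 and 250.4 CPM, the OPC list at 548 and 279 CPM, and the endothelial list at 279.9 and 112 CPM. The part of this foreign RNA in the 4 ratios was not tested.

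Oligodendrocytes had 254 genes at least 2-fold higher (3.93%) and 230 at most 0.5-fold (3.55%). Heat shock genes differed together. These encode chaperones, proteins that refold or hold damaged proteins, and they are switched on together by the transcription factor HSF1. The list summed to 588 CPM in mMCAO ipsi and 1817 CPM in sMCAO ipsi, a ratio of 3.09 [2.81, 3.41] against 1.05 [0.931, 1.18] in the contra pair. The other libraries held 488 (mMCAO contra), 511 (sMCAO contra), 649 (Sham L) and 590.5 CPM (Sham R), so 1 library of 6 was high. Of 12 compared members 10 were past 2-fold, all upward, and the median log2 ratio was 1.89 against -0.02 over all genes.

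The small heat shock protein Hspb1 had 2 UMIs in mMCAO ipsi and 90 in sMCAO ipsi, a ratio of 22.2 [5.97, 186]. Dnajb1, a co-chaperone that delivers substrates to Hsp70, had 3 and 96 UMIs, a ratio of 15.8 [5.24, 77.9]. Bag3, which links Hsp70 to autophagy, had 8 and 85 UMIs, a ratio of 5.24 [2.54, 12.5]. These 3 were near 0 in all other libraries, with at most 12 UMIs. Genes that are also expressed at rest had smaller ratios. Hsph1, an Hsp70 nucleotide exchange factor, had 79 and 687 UMIs, 95.4 and 409 CPM, a ratio of 4.29 [3.39, 5.49]. The inducible Hsp90 chain Hsp90aa1 was at 85.8 and 344 CPM, a ratio of 4.01 [3.13, 5.20], and the constitutive chain Hsp90ab1 at 105 and 243 CPM, a ratio of 2.31 [1.83, 2.94]. Hspa8, the constitutive Hsp70, was at 45.9 and 181 CPM, a ratio of 3.93 [2.80, 5.67]. The mitochondrial pair Hspe1 and Hspd1 had ratios of 3.49 [2.02, 6.45] and 2.05 [1.38, 3.14]. Chordc1 (84.6 and 90.6 CPM, ratio 1.07 [0.802, 1.44]) and Hspa4l (36.2 and 39.9 CPM, ratio 1.10 [0.706, 1.76]) were the members with intervals that hold 1.

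The promoters of the heat shock genes were searched for GAANNTTC, a pair of facing units of the element that HSF1 binds, which reads the same on both strands so that 1 search covers them. RefSeq promoters of GRCr8, a later build than the mRatBN7.2 of the counts, were matched by symbol for 12 of 14 names. Within the 250 bases before the start, 8 of these 12 held the motif and 2 held it more than once, against 7.02% and 0.324% of 27457 promoters. Hsp90ab1, Chordc1, Hspa4l and Hspa1a held none in this window, and Hspa1a was not measured under that name. The stretches around the motif nearest the start are shown for the 6 genes with a match that had the highest ratios, with the motif in capitals and read along the gene's strand:
Hsph1, chr12:10427311-10427367, plus strand: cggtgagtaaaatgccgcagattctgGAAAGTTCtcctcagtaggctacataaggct
Dnajb1, chr19:41431142-41431178, minus strand: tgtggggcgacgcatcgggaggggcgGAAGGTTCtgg
Hspb1, chr12:26432377-26432436, minus strand: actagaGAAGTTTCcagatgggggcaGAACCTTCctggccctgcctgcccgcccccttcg
Bag3, chr1:192533302-192533361, plus strand: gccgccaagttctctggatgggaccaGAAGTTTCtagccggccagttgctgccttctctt
Hspa8, chr8:50080438-50080497, plus strand: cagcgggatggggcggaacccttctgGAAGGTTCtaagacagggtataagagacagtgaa
Hspe1, chr9:64084241-64084300, plus strand: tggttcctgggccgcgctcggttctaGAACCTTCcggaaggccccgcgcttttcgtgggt
In Hspb1 the motif stands at 2 places in the printed stretch, and the Hspe1 stretch is shared with Hspd1, which is transcribed away from it on the other strand. The matches of Hspe1 and Hspd1 are thus the same site. Because the list was made of heat shock genes, an excess of the motif over all promoters comes with that choice. It says nothing about the difference between the libraries. A match describes the letters only, not binding in these nuclei.

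The heat shock signal of oligodendrocytes lay in a minority of nuclei. After each nucleus was thinned to 500 UMIs, 83 of 1311 oligodendrocyte nuclei of sMCAO ipsi (6.33% [5.07, 7.79]) held at least 5 heat shock UMIs. No such nucleus was found among 1042 of mMCAO ipsi, 1742 of mMCAO contra, 1124 of sMCAO contra, 850 of Sham L and 278 of Sham R, and 0 of 1042 nuclei in mMCAO ipsi allows a share of up to 0.288% taken as 3 nuclei, or 0.353% by the exact interval. Before thinning, the counts were 115 in sMCAO ipsi, 3 in mMCAO ipsi, 3 in mMCAO contra and 0 in sMCAO contra. In sMCAO ipsi, 50 nuclei held 10 or more heat shock UMIs of 500, and 19 held 20 or more. The same measure reached 0.422% in astrocytes, 0.592% in OPC, 0.193% in myeloid nuclei and 0.268% in neurons of sMCAO ipsi. This cut does not show smaller differences spread over nuclei. In OPC, Hsph1 had an ipsi ratio of 2.54 [1.48, 4.60] and Hspd1 of 3.26 [1.35, 9.51], while Hsp90aa1 (1.51 [0.860, 2.77]) and Hspa8 (1.68 [0.875, 3.45]) had intervals that hold 1. Heat shock UMIs of OPC were 155 of 411121 in mMCAO ipsi and 398 of 694511 in sMCAO ipsi. In astrocytes they were 270 of 518119 and 1065 of 1308131, and in myeloid nuclei 441 of 864496 and 1460 of 1988987. Each was a larger part of the class sum in sMCAO ipsi. In endothelial nuclei it was a smaller part, 104 of 67094 and 519 of 390822. Nuclei of sMCAO ipsi that met no class were the other group with a high share, 72 of 843 (8.54% [6.74, 10.6]) against 3 of 410 in mMCAO ipsi (0.732%).

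**Figure D3:**
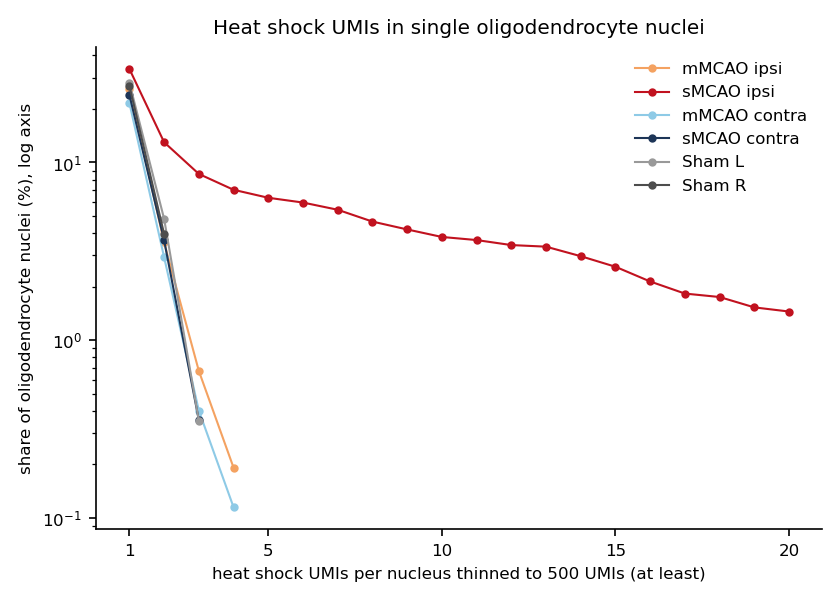
Percent of oligodendrocyte nuclei (log axis) that hold at least a given number of heat shock UMIs after each nucleus was thinned to 500 UMIs, with a line for each of the 6 libraries. Lines end where no nucleus is left: at 5 UMIs the line of sMCAO ipsi is at 6.33% and the other 5 have ended.

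The nuclei high in heat shock genes had a lower median depth than the rest, 692 UMIs before thinning against 1156 for the other oligodendrocyte nuclei of sMCAO ipsi. They shared a transcript that the files give only as ENSRNOG00000050647 and that was singled out after its values were seen. It was found in 76 of the 83 nuclei (91.6%), at 22954 CPM, and in 50 of the other 1228 (4.07%), at 171 CPM. In the unclassified nuclei of sMCAO ipsi it was found in 62 of 72 high nuclei (86.1%) and 46 of the other 771 (5.97%). The 12 neurons of mMCAO ipsi that were high in heat shock genes held it too, in 9 (75.0%) at 5599.6 CPM, against 0.802% of the other neurons of that library.

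Immediate early genes, transcribed within minutes of a stimulus, were higher in the same class. Jun had 13 and 188 UMIs, a ratio of 7.13 [4.07, 13.6], Fos 8 and 101 UMIs, a ratio of 6.23 [3.04, 14.8], and Egr1 2 and 73 UMIs, a ratio of 18.0 [4.81, 151]. Homer1, the other compared member, was lower at 135 and 81.6 CPM, a ratio of 0.603 [0.467, 0.782]. Of the cytokine signalling list, Stat3 was at 135 and 313 CPM, a ratio of 2.32 [1.89, 2.87], and its feedback inhibitor Socs3 had 4 and 56 UMIs, a ratio of 6.91 [2.55, 26.2]. The stress transcription factor Atf3 had 0 and 52 UMIs, at least 8.55-fold higher against a floor of 3 UMIs, with an exact lower bound of 6.71. As lists, the immediate early genes had an ipsi ratio of 2.11 [1.76, 2.54] and a contra ratio of 0.861, the cytokine signalling genes 1.71 [1.52, 1.92] and 0.998, and the unfolded protein response genes, to which Atf3 belongs, 1.66 [1.40, 1.97] and 1.23 [1.02, 1.49], with none of 6 compared members past 2-fold.

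Myelin genes outside the gate were mixed. Their sum was 9409 and 10737 CPM, a ratio of 1.14 [1.11, 1.17], with 7 intervals above 1 and 5 below among 19 members, where 11.9% and 12.9% of all genes were above and below. Transferrin (Tf), the iron carrier that oligodendrocytes make, was at 1536 and 2994 CPM, a ratio of 1.95 [1.83, 2.07], and without it the summed ratio was 0.984. Olig1, a transcription factor of the lineage, had 18 and 119 UMIs, a ratio of 3.26 [1.98, 5.69]. Opalin and Ermn, both of mature myelinating cells, were lower, with ratios of 0.768 [0.698, 0.846] and 0.738 [0.618, 0.881]. The list of stroke-associated oligodendrocyte genes, which the study chose on these samples and which is therefore no independent evidence of direction, had a ratio of 1.32 [1.27, 1.37] against 0.933 in the contra pair. Its members past 2-fold were the semaphorin Sema5b (101 and 269 CPM, ratio 2.65), the collagen Col12a1 (10.9 and 29.8 CPM, ratio 2.74) and the claudin Cldn14 (37.4 and 82.2 CPM, ratio 2.20), while the endosomal adaptor Wdfy1 was at 165 and 328 CPM, a ratio of 1.98.

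Genes picked by the naming rule as highest in oligodendrocytes owed much of their signal to single nuclei. All 136 UMIs of Adh6, an alcohol dehydrogenase, came from 1 nucleus of sMCAO ipsi, and 120 of 184 UMIs of the scavenger receptor Scarf1 from 1 nucleus. Lrrc75a had 6 and 423 UMIs, a ratio of 34.8 [15.8, 95.3], in 55 nuclei with at most 127 in 1. Gga3, an adaptor for sorting from the Golgi, had 16 and 654 UMIs, a ratio of 20.2 [12.3, 35.5], in 59 nuclei with at most 150 in 1, and without the top nucleus of each library the ratios were 29.2 and 16.6. Picked as lowest were the carboxypeptidase Agbl1 (48.3 and 13.7 CPM, ratio 0.284), the deubiquitinase scaffold Abraxas2 (37.4 and 11.3 CPM, ratio 0.302), the signalling adaptor Blnk (37.4 and 12.5 CPM, ratio 0.334) and the small GTPase Rras2 (318 and 143 CPM, ratio 0.450). For Rras2 and Agbl1 the contra pair differed in the same direction, by 0.704 and 0.590.

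Astrocytes had 239 genes at least 2-fold higher (3.70%) and 118 at most 0.5-fold (1.83%). With sums thinned to the same total the split was 24 and 25. Cytokine and chemokine genes summed to 143 and 469 CPM, a ratio of 3.28 [2.57, 4.23] against 1.14 in the contra pair. Ccl2, which attracts monocytes, had 15 UMIs in mMCAO ipsi and 341 in sMCAO ipsi and none in the other 4 libraries, a ratio of 9.0 [5.38, 16.3]. Its relative Ccl7 had 8 and 100 UMIs and likewise none elsewhere, a ratio of 4.95 [2.42, 11.8]. Ccl2 was detected in 80 of 474 astrocyte nuclei of sMCAO ipsi and in 12 of 359 of mMCAO ipsi.

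Reactive astrocyte genes summed to 3654 and 6179.8 CPM, a ratio of 1.69 [1.61, 1.78], with 5 of 10 members past 2-fold, where 5.53% of all genes were. The contra pair differed more on this list, 715 and 1766 CPM, a ratio of 2.47 [2.04, 2.99], so the opposite hemispheres of the severe and moderate pools were also apart. Gfap, the main astrocyte filament, was at 2646 and 3989.7 CPM in the infarcted pair, a ratio of 1.51 [1.42, 1.60], and at 550 and 1399 CPM in the contra pair, a ratio of 2.54 [2.05, 3.16]. Vimentin (Vim), another filament protein, was at 282 and 756 CPM, a ratio of 2.68 [2.25, 3.21], and the protease inhibitor A2m had 37 and 489 UMIs, a ratio of 5.23 [3.74, 7.52]. Both had contra ratios of 4.94, from 4 UMIs in mMCAO contra and 12 in sMCAO contra. Ceruloplasmin (Cp), which oxidizes iron for export, was at 151 and 323 CPM, a ratio of 2.15 [1.68, 2.77].

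Matrix genes of astrocytes had an ipsi ratio of 1.51 [1.42, 1.62] and a contra ratio of 1.18 [0.949, 1.46]. Tenascin C (Tnc), a matrix glycoprotein of injured tissue, had 182 and 1278 UMIs, 351 and 977 CPM, a ratio of 2.78 [2.38, 3.27] against a contra ratio of 0.891. Fibulin 2 (Fbln2) had 21 and 352 UMIs, a ratio of 6.64 [4.28, 10.9] with a contra ratio of 2.82, and Lgals3 5 and 78 UMIs, a ratio of 6.18 [2.54, 19.6]. Cell cycle genes were higher too, at 2351 and 3462 CPM, a ratio of 1.47 [1.38, 1.57], with 15 of 23 intervals above 1 and none below, where 10.2% of all genes were above. In the opposite hemispheres the same list was at 269 and 272 CPM. Mki67, a marker of dividing cells, had 52 and 224 UMIs, a ratio of 1.71 [1.26, 2.35], and was at 0 UMIs in the other 4 libraries. The spindle checkpoint kinase Bub1b had 15 and 108 UMIs, a ratio of 2.85 [1.65, 5.27]. In myeloid nuclei the cell cycle list had a ratio below 1, as given above, and in OPC it was 1.01 [0.951, 1.08].

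Genes by which astrocytes take up transmitter and buffer ions were lower in sum, 20903 and 16537 CPM, a ratio of 0.791 [0.773, 0.810], with a contra ratio of 0.879 [0.848, 0.911] in the same direction. The glutamate transporter Slc1a2 was at 5362 and 4079.9 CPM, a ratio of 0.761 [0.727, 0.797], and both were under the 7994 and 9019 CPM of the contra pair. Glutamine synthetase (Glul) was an exception within the list, at 305 and 448 CPM, a ratio of 1.47 [1.23, 1.76]. Of the genes picked as lowest, the netrin receptor Dcc had 957 and 1068 UMIs, 1847 and 816 CPM, a ratio of 0.442 [0.405, 0.483] against 1.25 in the contra pair, and the ligand Slit2 was at 243 and 72.6 CPM, a ratio of 0.299 [0.226, 0.393]. For Dcc the contrast with the contra pair is part of the naming rule and no separate result. Also picked as lowest were the phosphodiesterase Pde3a (71.4 and 10.7 CPM, ratio 0.150) and the matrix protein hemicentin 1 (Hmcn1, 154 and 35.9 CPM, ratio 0.233). The neuronal list was at 1067 and 623 CPM in the same nuclei, and its part in these ratios was not tested. The sodium channel Scn7a, picked as high, had 2 and 56 UMIs.

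**Figure D4:**
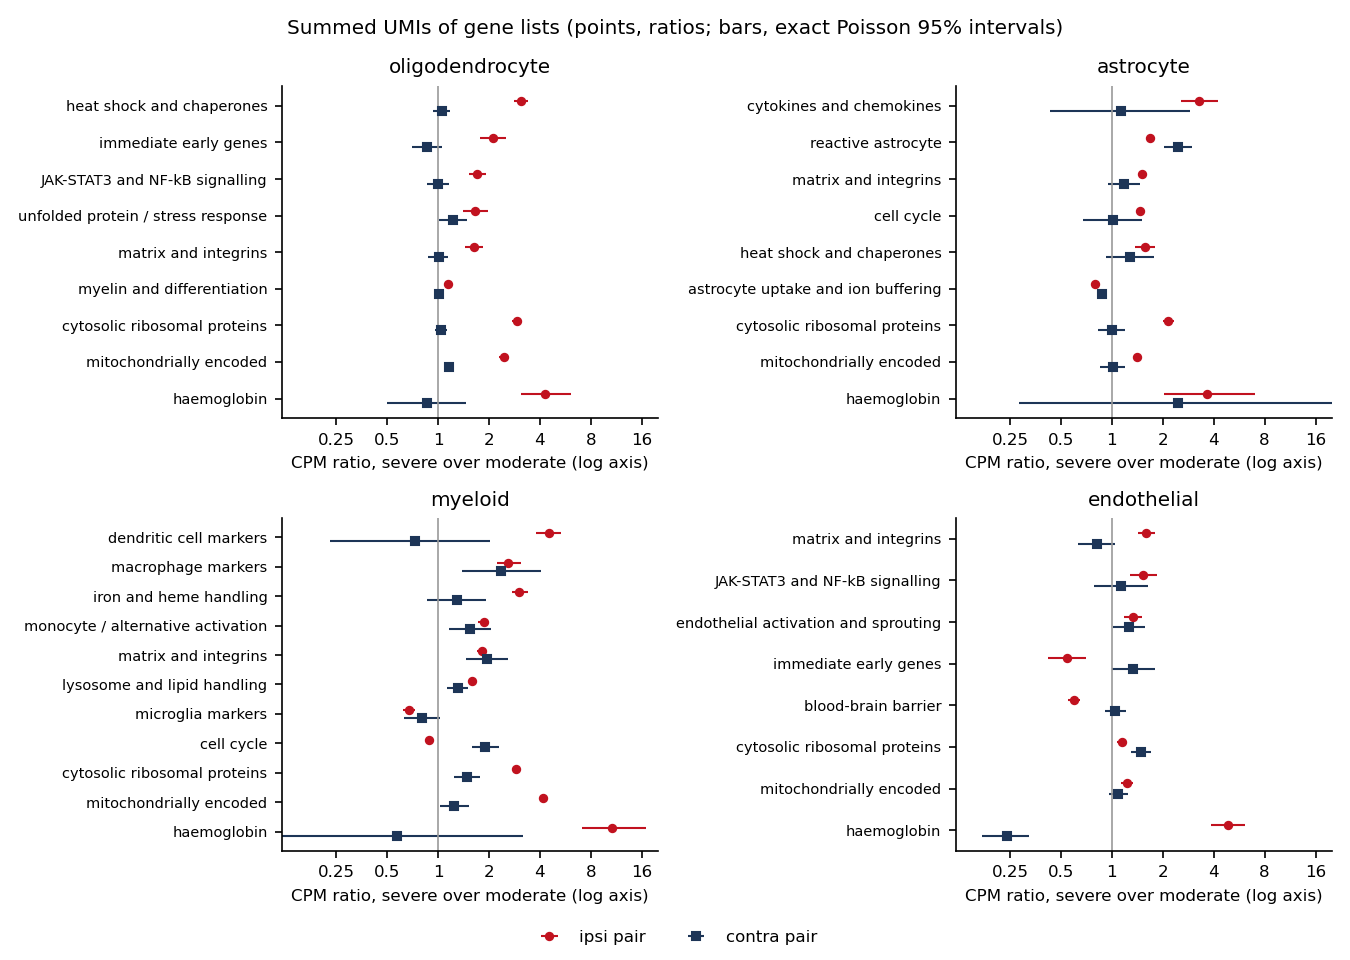
Ratio of summed CPM, severe over moderate, for gene lists in oligodendrocytes, astrocytes, myeloid and endothelial nuclei, in the ipsi and contra pairs (points, log axis, with exact Poisson 95% intervals as bars, some of which run past the axis). Heat shock genes in oligodendrocytes are at 3.09 ipsi and 1.05 contra, while reactive astrocyte genes are at 1.69 and 2.47.

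OPC had 104 genes at least 2-fold higher (2.38%) and 47 at most 0.5-fold (1.08%). With sums thinned to the same total the split was 31 and 28. The list of stroke-associated OPC genes, again chosen by the study on these samples, summed to 1688 and 2275 CPM, a ratio of 1.35 [1.23, 1.48] against 0.990 in the contra pair. Vim had 27 and 118 UMIs, a ratio of 2.59 [1.69, 4.09], with 0 and 8 UMIs in the contra pair, which differed in the same direction with a lower bound of 2.89. Also higher were Met, the receptor of hepatocyte growth factor, with 11 and 44 UMIs, a ratio of 2.37 [1.20, 5.08], and the matrix protease Mmp15, with 18 and 61 UMIs, a ratio of 2.01 [1.17, 3.61]. These were the 3 of 11 compared members past 2-fold. OPC homeostasis genes had a ratio of 0.932 in both pairs. Within them the kainate receptor subunit Grik1 was at 426 and 246 CPM, a ratio of 0.578 [0.466, 0.718], and Olig1 had 6 and 44 UMIs, a ratio of 4.34 [1.84, 12.5]. Olig1 was thus higher in both stages of the oligodendrocyte lineage. In OPC the related factors Olig2 (1.07 [0.649, 1.80]) and Sox10 (1.37 [0.956, 1.99]) of the same list had intervals that hold 1. The naming rule gave the ferritin chain Fth1 (26 and 198 UMIs, ratio 4.51), the ribosomal genes Rplp1 (4 and 77 UMIs, ratio 11.4) and Rps29 (8 and 71 UMIs, ratio 5.25) and the mitochondrial Mt-nd5 (8 and 74 UMIs, ratio 5.48) as highest. Lowest were the cholesterol exporter Abca1 (99.7 and 38.9 CPM, ratio 0.390), the matrix protein Ccbe1 (168 and 87.8 CPM, ratio 0.523), Grik1 and the glypican Gpc5 (1343 and 841 CPM, ratio 0.626).

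Endothelial nuclei, 56 in mMCAO ipsi and 238 in sMCAO ipsi, had 238 genes at least 2-fold higher (10.4%) and 84 at most 0.5-fold (3.69%). With sums thinned to the same total the split was 5 and 7. The contra pair holds 60 and 25 nuclei, and with so few the counting error is wide. Blood-brain barrier genes were lower as a group: 10776 and 6409.6 CPM, a ratio of 0.595 [0.547, 0.647] against 1.05 [0.916, 1.21] in the contra pair, with 8 of 10 intervals below 1 and none above, where 8.03% of all genes were below. The other 4 libraries lay between 10367 and 11406 CPM, so sMCAO ipsi was the low one. The amino acid transporter Slc7a5 was at 447 and 84.4 CPM in the infarcted pair, a ratio of 0.189 [0.112, 0.321], and between 285 and 663 CPM in the other 4 libraries. Mfsd2a, the lipid transporter that limits leakage through endothelial cells, had 13 and 13 UMIs from sums of unequal size. It was at 194 and 33.3 CPM, a ratio of 0.172 [0.0733, 0.402], and had too few UMIs to be among the 10 compared members. The transferrin receptor Tfrc was at 745 and 156 CPM, a ratio of 0.209 [0.142, 0.311]. Slco1c1, a thyroid hormone transporter, was at 1192 and 494 CPM, a ratio of 0.414 [0.318, 0.544]. Members with more UMIs had smaller differences, with Slco1a4 at 0.549 [0.452, 0.672], Tjp1 at 0.658 [0.534, 0.817] and Lef1 at 0.793 [0.650, 0.976]. The glucose transporter Slc2a1 did not follow, at 1401 and 1151 CPM, a ratio of 0.822 [0.657, 1.04], nor did Cdh5, at 1.22 [0.760, 2.06].

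Klf2, a transcription factor that blood flow keeps on, was at 1148 and 333 CPM, a ratio of 0.290 [0.217, 0.389], and between 1170 and 1584 CPM in the other libraries. Immediate early genes were lower as well, with a summed ratio of 0.541 [0.419, 0.704] against 1.34 in the contra pair and Jun at 373 and 115 CPM. In oligodendrocytes Jun had a ratio of 7.13. The growth factor pleiotrophin (Ptn) was at 537 and 118 CPM, a ratio of 0.219 [0.139, 0.349]. Mural cell markers in the endothelial nuclei were at 1669 and 471 CPM, and the part of mural RNA in these ratios was not tested.

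On the higher side, Tacr1, the receptor of substance P, had 1 UMI in mMCAO ipsi and 278 UMIs in 65 nuclei of sMCAO ipsi, a ratio of 47.7 [8.50, 1892]. Igfbp3, which binds insulin-like growth factors, had 0 and 151 UMIs, at least 8.64-fold higher against a floor of 3 UMIs, with an exact lower bound of 6.94, in 44 nuclei. Both had 0 UMIs in the opposite hemispheres and in Sham, where the class held 24 to 60 nuclei per library. Of the collagens of the vessel basement membrane, Col4a2 was at 402 and 1141 CPM, a ratio of 2.84 [1.92, 4.35], and Col4a1 at 1341 and 2216 CPM, a ratio of 1.65 [1.33, 2.08]. Fn1, of the same matrix list, did not follow, at 1073 and 954 CPM, a ratio of 0.889 [0.689, 1.16]. Il6st, the shared receptor chain for interleukin 6 type cytokines, had 17 and 339 UMIs, a ratio of 3.42 [2.11, 5.95], and the leukocyte adhesion molecule Vcam1 had 2 and 50 UMIs, a ratio of 4.29 [1.13, 36.4]. Hbb-b1 was at 388 and 2188 CPM, with 239 of its 855 UMIs in 1 nucleus. It was at 3351 CPM in mMCAO contra, 819 CPM in sMCAO contra, 2492 CPM in Sham L and 6959 CPM in Sham R. For this gene mMCAO ipsi was thus the lowest library, and sMCAO ipsi was not the highest.

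Neurons had 27 genes at least 2-fold higher (0.431%) and 8 at most 0.5-fold (0.128%), or 19 and 10 when CPM were scaled by the median ratio of genes. The infarcted pair differed in the mix of neurons. Markers of glutamatergic neurons summed to 697 and 574 CPM over all neurons, a ratio of 0.823, those of medium spiny neurons, the output cells of the striatum, to 1086 and 1378 CPM, a ratio of 1.27, and those of other GABAergic neurons to 912 and 1245 CPM, a ratio of 1.36. The contra ratios of the 3 lists were 0.999, 1.05 and 1.07. Values over all neurons therefore hold a difference in mix, and the subtypes were also compared on their own.

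Dpp10, an auxiliary subunit of Kv4 potassium channels, had 483966 UMIs in mMCAO ipsi and 143555 in sMCAO ipsi, 12516 and 6566 CPM, a ratio of 0.525 [0.522, 0.528]. It was between 9561 and 12493 CPM in the other 4 libraries, so sMCAO ipsi was the low one. Potassium channel subunits as a list were slightly lower, at 12217 and 10597 CPM, a ratio of 0.867 [0.863, 0.872] against 0.964 in the contra pair, with 14 of 16 intervals below 1 and none above, where 17.3% of all genes were below. None of the 16 was past 2-fold. The inward rectifier Kcnj6 was at 300 and 220.4 CPM, a ratio of 0.735 [0.710, 0.760], and Kcnd2, a Kv4 channel that Dpp10 assists, was at 2717 and 2692 CPM, a ratio of 0.991 [0.981, 1.0]. Glutamate receptor genes had a summed ratio of 0.998 [0.994, 1.0], with the NMDA receptor subunit Grin2a lower at 839 and 589 CPM (ratio 0.702) and the kainate subunit Grik1 higher at 296 and 406 CPM (ratio 1.37). GABA receptor genes had a ratio of 1.06 [1.05, 1.06]. These channel and receptor ratios were taken over all neurons. In other GABAergic neurons alone Grik1 was at 0.996 and Kcnj6 at 0.897 [0.754, 1.07], both with intervals that hold 1. Kcnd2 was above 1 there, at 1.10 [1.06, 1.15], as was Kcnh5 at 1.32 [1.09, 1.60]. Grin2a was lower there too, at 0.640 [0.584, 0.702], as was the potassium channel subunit Kcnq5 at 0.801 [0.760, 0.845]. Of the other potassium channel subunits, Kcnj3 (0.809), Kcnq3 (0.808) and Kcnn2 (0.851) had intervals below 1 there. All the rest had intervals that hold 1, so most of the list was not lower in this subtype. The part of the mix of neurons in the ratios over all neurons was not tested.

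The genes named from here on for neurons and their subtypes were picked by the naming rule, so their contrast with the contra pair is part of the choice. Over all neurons, Stac, an adaptor of voltage-gated calcium channels, was at 9.78 and 31.8 CPM, a ratio of 3.26 [2.87, 3.70] with a contra ratio of 1.20. Levels in the other 4 libraries were 18.3 to 21.9 CPM, so mMCAO ipsi was below and sMCAO ipsi above them. The protease Pappa2, which frees insulin-like growth factors, was at 20.1 and 54.4 CPM, a ratio of 2.71 [2.47, 2.97], and between 11.7 and 12.6 CPM elsewhere. Ltbp1, which holds latent TGF-beta, had a ratio of 2.37, and the actin-associated Rai14 2.21. Lower were the procollagen protease Adamts2 (63.1 and 22.4 CPM, ratio 0.354), the steroid hydroxylase Cyp11b1 (37.3 and 14.7 CPM, ratio 0.393) and the copine Cpne9 (37.5 and 16.8 CPM, ratio 0.447).

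In glutamatergic neurons (3927 and 1152 nuclei) 0.934% of 6104 genes were past 2-fold, against 0.0977% in the contra pair. Vwa5a, a protein with a von Willebrand factor A domain, had 116 and 472 UMIs, 5.51 and 44.6 CPM, a ratio of 8.11 [6.60, 10.0], and was under 1 CPM in the other libraries. The collagen-binding integrin Itga1 had 135 and 469 UMIs, a ratio of 6.92 [5.71, 8.45], with a contra ratio of 1.95. Pappa2 was 4.93-fold [4.37, 5.58] higher here. Rorb, a nuclear receptor typical of layer 4 of the cortex, had 2648 and 524 UMIs, 126 and 49.6 CPM, a ratio of 0.394 [0.358, 0.433] against 0.931. The axon guidance receptor Robo3 was at 38.5 and 11.6 CPM, a ratio of 0.302 [0.248, 0.366], and the vesicle priming factor Cadps2 at 311 and 132 CPM, a ratio of 0.426 [0.402, 0.452]. A sum cannot tell fewer neurons of a layer from less of its transcripts per nucleus.

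In medium spiny neurons (1113 and 540 nuclei) 0.564% of 6027 genes were past 2-fold, against 0.0831%. The collagen Col5a2 had 63 and 191 UMIs, a ratio of 3.36 [2.51, 4.54] with a contra ratio of 0.419, the sodium-proton exchanger Slc9a5 62 and 157 UMIs, a ratio of 2.80 [2.08, 3.83], and Mlycd, which breaks down malonyl-CoA, 135 and 290 UMIs, a ratio of 2.38 [1.93, 2.94] with a contra ratio of 1.46. For Slc9a5 and Egfem1 (322 and 671 CPM, ratio 2.08), mMCAO ipsi was the low library, since the contra and Sham values were 33.5 to 48.3 CPM and 603 to 669 CPM. Kif28p, a kinesin, was at 31.8 and 10.0 CPM, a ratio of 0.315 [0.207, 0.467]. Acvr1c, an activin and nodal receptor, was at 99.6 and 38.9 CPM, a ratio of 0.391 [0.317, 0.479]. The contra and Sham values of Acvr1c were 46.6 to 62.1 CPM, so mMCAO ipsi was above and sMCAO ipsi below them. Reln, the secreted protein reelin, was lower in medium spiny neurons (293 and 169 CPM, ratio 0.576) and in other GABAergic neurons (739 and 342 CPM, ratio 0.462). In the former mMCAO ipsi was the high library, since the other 4 were at 165 to 210.2 CPM, and in the latter sMCAO ipsi was the low one, since they were at 541 to 666 CPM.

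In other GABAergic neurons (517 and 298 nuclei) 1.16% of 6363 genes were past 2-fold, against 0.170%. Here 1 nucleus could decide a value: Syde2 had 15 and 92 UMIs, a ratio of 6.0, but 85 of the 92 came from 1 nucleus, and without the top nucleus of each library the ratio was 0.489 [0.167, 1.30]. The heparan sulphate enzyme Ndst4 was at 55.2 and 134 CPM, a ratio of 2.42 [1.88, 3.13]. For Ndst4 mMCAO ipsi was the low library, since the contra and Sham values were 103 to 166 CPM. The prolactin receptor Prlr was at 13 and 41.3 CPM, a ratio of 3.17 [1.92, 5.44] with a contra ratio of 1.63. The relaxin receptor Rxfp1 was at 169 and 72.2 CPM, a ratio of 0.426 [0.341, 0.531]. Its contra and Sham values were 77.9 to 123 CPM, so mMCAO ipsi was above and sMCAO ipsi just below them. Cyct, the gene of the testis form of cytochrome c, was at 320 and 129 CPM, a ratio of 0.402 [0.341, 0.473].

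**Figure D5:**
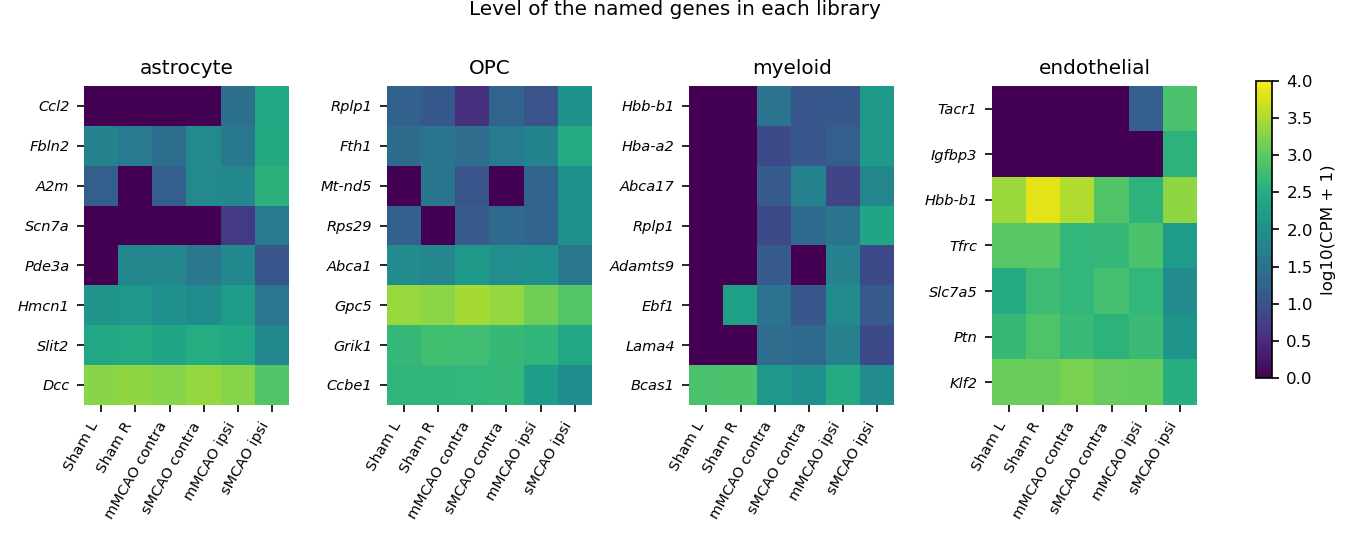
Levels of the genes picked by the naming rule in astrocytes, OPC, myeloid and endothelial nuclei (rows) in each of the 6 libraries (columns), coloured by log10(CPM + 1). Sham columns of the myeloid panel rest on 8 and 9 nuclei. Endothelial Tacr1, for example, is at 711 CPM in sMCAO ipsi, 14.9 CPM in mMCAO ipsi and 0 in the other 4 libraries.

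Some kinds of transcript were higher in sMCAO ipsi than in mMCAO ipsi in every class compared. Genes of cytosolic ribosomal proteins had a summed ipsi ratio of 2.92 [2.75, 3.10] in oligodendrocytes, 2.88 [2.75, 3.02] in myeloid nuclei, 2.17 [1.99, 2.37] in OPC, 2.16 [2.0, 2.34] in astrocytes and 1.88 [1.85, 1.91] in neurons, and of 1.15 [1.07, 1.23] in endothelial nuclei. Contra ratios in the same order were 1.04, 1.49, 1.21, 0.996, 1.01 and 1.49. In oligodendrocytes 52 of 60 compared ribosomal genes were past 2-fold, all upward, where 3.93% of all genes were at least 2-fold higher. Mitochondrially encoded genes had ipsi ratios of 4.17 [3.94, 4.42] in myeloid nuclei, 2.45 in oligodendrocytes and in OPC, 1.71 in neurons, 1.40 in astrocytes and 1.23 in endothelial nuclei, with contra ratios of 1.25, 1.16, 2.05, 1.53, 1.01 and 1.09. Haemoglobin genes had ipsi ratios from 3.63 in astrocytes to 10.7 in myeloid nuclei, and contra ratios from 0.239 in endothelial nuclei to 2.47 in astrocytes. In endothelial nuclei Hba-a2 was at 760.1 and 3365 CPM in the infarcted pair, and at 3061 and 9732 CPM in Sham L and Sham R. Most mRNA of these 3 kinds is found in the cytoplasm, in mitochondria or in red cells and not in nuclei. It moved with the stress genes of oligodendrocytes and the ferritin genes of myeloid nuclei, and its part in those ratios was not tested.

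Nuclei that met no class are no cell type, and their values describe a mixture. Their heat shock genes summed to 722 CPM in mMCAO ipsi and 2281 CPM in sMCAO ipsi, a ratio of 3.16 [2.83, 3.54] against 1.35 in the contra pair, with 10 of 12 compared members past 2-fold. Over all genes 8.63% were past 2-fold in the infarcted pair and 1.28% in the contra pair. Hsph1 had 75 and 902 UMIs, a ratio of 3.97 [3.13, 5.09]. Unfolded protein response genes, which answer stress of the endoplasmic reticulum, had a ratio of 2.31 against 0.956, and the cell cycle inhibitor Cdkn1a had 3 and 78 UMIs, a ratio of 8.58 [2.83, 42.5]. In these nuclei the neuronal list was at 1262 and 908 CPM and the myeloid list at 461 and 269 CPM, the latter against 8161 and 8417 CPM in myeloid nuclei. Ependymal nuclei were few, 51 and 77, and 5.82% of their 739 compared genes were past 2-fold against 2.81% in the contra pair. Their Vim had 11 and 114 UMIs, a ratio of 3.47 [1.87, 7.14], and Cfap74, a gene of motile cilia, was at 1184 and 549 CPM, a ratio of 0.464 [0.326, 0.664].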

How the data were processed

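The authors isolated nuclei from brain hemispheres, prepared droplet libraries from the 5′ end of transcripts and deposited raw UMI counts per gene and nucleus, with Cell Ranger 7.0.0 and build mRatBN7.2 per the submitters' processing notes. Nuclei with at least 500 UMIs, 250 to 5000 genes and at most 5% mitochondrial UMIs were kept. A nucleus joined a class with at least 2 distinct markers and a marker score of at least 0.3 of that in nuclei with 3 markers, and was left as mixed if a second class reached 0.5 of its score. No doublet caller was run. Counts were summed per class and library and set against each other without a test, since each group is 1 library. The named genes were, per class, the 4 with the highest lower bound and the 4 with the lowest upper bound of the ratio among class-enriched genes with a symbol, gate genes left out, whose contra ratio was opposite or less than 0.5 of the ipsi ratio on the log scale, and members of the lists, and 1 endothelial gene is not reported here. Members and lists were chosen with earlier results of these data known, and the ribosomal, mitochondrial and haemoglobin lists after the sums were seen. The 2 stroke-associated lists are the study's own. Scripts ran on Python 3.11.15 with numpy 2.4.6, scipy 1.17.1, pandas 2.3.3 and matplotlib 3.10.9, and were tested on simulated data. The genome sequence of mRatBN7.2 was not used here, so genes carry no coordinates in that build.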

Additional observations from a re-analysis of the deposited data

Results flagged for a closer look

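For the values given here the ipsi and contra ratios lay on opposite sides of 1, each with an interval that leaves 1 out. Cell cycle genes in myeloid nuclei had an ipsi ratio of 0.883 [0.847, 0.920] and a contra ratio of 1.90 [1.58, 2.28], with levels of 3955 and 3492 CPM against 1474 and 2798 CPM. Hypoxia and glycolysis genes in neurons had an ipsi ratio of 1.13 [1.10, 1.16] and a contra ratio of 0.979 [0.959, 0.998]. Stroke-associated oligodendrocyte genes in oligodendrocytes had an ipsi ratio of 1.32 [1.27, 1.37] and a contra ratio of 0.933 [0.896, 0.970]. Immediate early genes in neurons, where 1 member was compared, had an ipsi ratio of 1.25 and a contra ratio of 0.907. Haemoglobin genes in endothelial nuclei had an ipsi ratio of 4.84 [3.85, 6.15] and a contra ratio of 0.239 [0.172, 0.324]. Shares of all nuclei did so in 3 classes: oligodendrocytes (1.88 ipsi and 0.866 contra), endothelial nuclei (6.35 and 0.559) and ependymal nuclei (2.26 and 0.541). Among non-neuronal nuclei alone the ipsi ratios of these classes were 0.839, 2.84 and 1.01 [0.698, 1.46] in the same order. None of the differences between the pairs was tested, since each ratio compares 1 library with 1 other.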

How the results depend on the processing

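The share ratio of neurons lay between 0.505 and 0.529 under the 5 alternatives run. With nuclei thinned to 1000 UMIs and shallower ones left out the share ratio was 7.47 for oligodendrocytes, 2.41 for OPC, 2.62 for astrocytes, 5.32 for myeloid and 9.27 for endothelial nuclei, and with mixed nuclei kept in their top class it was 2.47 for myeloid and 4.64 for endothelial nuclei. Among non-neuronal nuclei, a base chosen after seeing the data, it was 1.24 for myeloid and 2.84 for endothelial nuclei and turned below 1 for oligodendrocytes (0.839), OPC (0.613) and astrocytes (0.881). On that base with nuclei thinned to 1000 UMIs, also chosen later, it was 1.64 for oligodendrocytes, 0.530 for OPC, 0.576 for astrocytes, 1.17 for myeloid and 2.04 for endothelial nuclei, so the direction for oligodendrocytes depends on the depth used. Thinning to 500 UMIs and leaving out the top nucleus of each gene were also chosen after seeing the data. Genes past 2-fold depend on the minimum of UMIs. At 0.5 of the minimum there were 88 in neurons, 864 in oligodendrocytes, 483 in OPC, 774 in astrocytes, 1445 in myeloid and 824 in endothelial nuclei, and with no minimum beyond 1 UMI in each library 2230, 3023, 2259, 2519, 3590 and 2905 in the same order. With sums thinned to the same total there were 59 in OPC, 49 in astrocytes, 65 in myeloid and 12 in endothelial nuclei, where fewer genes reach the minimum. Without their member with most UMIs, 3 list ratios changed side: p53 targets in astrocytes (0.990), interferon response in neurons (0.804) and myelin genes in oligodendrocytes (0.984). Without the top nucleus of each library Syde2 in other GABAergic neurons was at 0.489. Of the other values of list sums and named genes under alternatives, 475 and 222 moved by no more than their counting interval and 76 and 6 moved further. No paired analysis was possible because each group is 1 library of pooled rats. Leaving out a replicate was not possible for the same reason. The 25 endothelial nuclei of sMCAO contra and the 8 and 9 myeloid nuclei of the Sham libraries limit what those values can show.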

Other observations

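In oligodendrocytes of sMCAO ipsi, 9 of 1311 nuclei held at least 50 UMIs of 1 gene that made up at least 5% of the nucleus and was under 20 CPM in the rest of the class, each a different gene, such as Adh6 (136 of 1108 UMIs, 12.3%), Shbg (104 UMIs, 16.8%) and Itga10 (87 UMIs, 15.9%). These genes were chosen after their values were seen. Of the 9 nuclei, 5 were also among those high in heat shock genes. In the other 5 libraries no oligodendrocyte nucleus met this limit, and among the other classes it was met by 1 nucleus, a neuron of mMCAO contra with the haemoglobin gene Hba-a2.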
